A study of Mus musculus with 18 samples.

Results

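Brown fat and skeletal muscle of the same mouse strain were compared at the level of transcripts, with 6 brown fat libraries against 6 muscle libraries, which is 12 of the 18 libraries of the series. The tissue label alone chose them. All came from C57BL/6J mice, an inbred laboratory strain, that received by gavage either the vehicle (10% PEG400 in phosphate-buffered saline) or quercetin, a plant flavonol, at 0.125 mg/kg in that vehicle. Each tissue had 3 vehicle and 3 quercetin libraries, numbered 1 to 3, and the treatment was a covariate of the comparison. The series asks what low-dose quercetin does to mouse healthspan; the other 6 libraries, of white fat, serve here for levels only. No source used here names the brown fat depot, the muscle, or the age and sex of the mice sequenced. Nothing there says that the numbered libraries of a group come from separate animals, so p-values measure the spread among these libraries.

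Brown adipocytes burn fat to make heat: noradrenaline acts on beta-adrenergic receptors, lipolysis frees fatty acids, and the uncoupling protein UCP1 lets protons return across the inner mitochondrial membrane without ATP synthase. Skeletal muscle spends ATP on contraction. It keeps a creatine phosphate buffer, breaks down glycogen, and releases calcium from the sarcoplasmic reticulum at a voltage-driven junction. Both tissues are rich in mitochondria, and brown adipocytes of the trunk share with muscle a progenitor that has expressed Myf5.

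Counts summed over genes were 8997823 to 12311345 per library in muscle and 8436308 to 11323696 in brown fat. The first principal component, with 59.6% of the variance of log2 CPM (counts scaled to a common library total), separated the tissues. Brown fat quercetin 3 lay nearest to muscle, at 11.87 against 46.52 to 126.4 in the other brown fat libraries and -94.45 to -56.92 in muscle. The second component (14.4%) set muscle vehicle 1, at 121.1, apart from the other muscle libraries, at -33.45 to -5.041. Ucp1 and the muscle genes Acta1, Myh4 and Ckm separated the tissues as labelled, with no overlap, but some libraries also held transcripts of another tissue. Summed over the 30 sarcomere genes of the list below, brown fat quercetin 3 held 27500 CPM and vehicle 1 held 6338, while the remaining 4 brown fat libraries held 249 to 1519 and muscle 51210 to 92050. Summed over the 27 brown adipocyte genes, brown fat quercetin 3 held 3877 CPM against 9669 to 14010 in the other 5. Among muscle libraries, quercetin 2 held 245 CPM of Ucp1 and 26730 CPM of the 10 seminal vesicle genes, which reached at most 0.377 CPM in the other 11 libraries, and vehicle 3 held 414 CPM of Adipoq, the hormone adiponectin. The flow cell is a reading of an identifier recorded with each library. Of the libraries compared, muscle quercetin 3 alone carried that of a second flow cell. In such bulk samples, fewer cells of a type and less RNA per cell cannot be told apart.

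Of 13378 genes tested with edgeR's quasi-likelihood test at a Benjamini-Hochberg adjusted p under 0.05, 2299 (17.2%) were higher in brown fat and 2415 (18.1%) higher in muscle, or 35.2% in either direction. Of the genes called, 1638 higher in brown fat (12.2% of all tested) and 1708 higher in muscle (12.8%) had an estimate of at least 2-fold. The estimate was at least 16-fold for 100 genes called in brown fat and 242 in muscle. The test was against no difference, not against a set fold. The 6 libraries of one tissue lay wholly above the 6 of the other for 1062 genes in brown fat (7.94%) and 1295 in muscle (9.68%). For 4426 genes (33.1%) the unadjusted 95% interval of the log2 fold change stayed within 2-fold. Log2 fold changes are brown fat over muscle throughout, so a positive value is higher in brown fat, a value alone in parentheses after a gene is its log2 fold change, and the median over all genes tested was -0.01. On the first flow cell alone, without muscle quercetin 3, 1995 and 2069 genes were called. The second flow cell held no brown fat library.

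The genes of brown adipocyte identity and heat production were higher in brown fat. Of 27 in the list, 25 were tested, 23 were called higher in brown fat, against 17.2% of all genes tested, and 0 in muscle, with a median log2 fold change of 4.03. Ucp1 itself (ENSMUSG00000031710, chromosome 8, 83290352 to 83298452, plus strand, build GRCm38) was at 807 to 3921 CPM (median 3745) in brown fat and at 0 to 245 CPM (median 0.3) in muscle. The groups did not overlap, and the highest muscle library, quercetin 2, and the lowest brown fat library, quercetin 3, were the ones with transcripts of other tissues. Its log2 fold change was 8.78 ± 2.54 (SE, n = 6 and 6; edgeR adjusted p = 0.0178), and fits that left out one library gave 7.28 to 13.91, the highest without muscle quercetin 2. Without brown fat quercetin 3 it was 10.32.

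**Figure D1:**
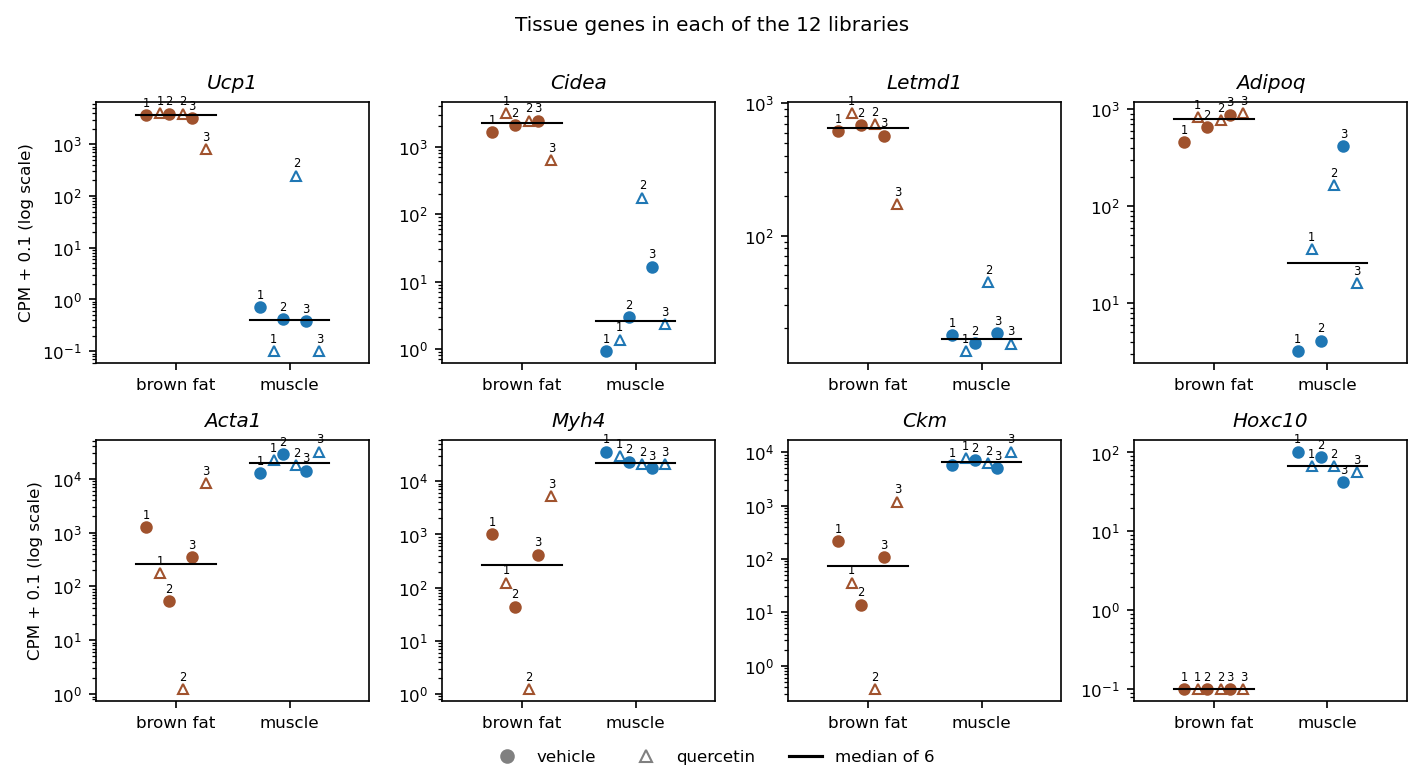
Levels of 8 tissue genes in each library, as CPM plus 0.1 on a log scale, with circles for vehicle, triangles for quercetin, the replicate number above each point and a bar at the median of 6. Brown fat quercetin 3 is the lowest brown fat library for Ucp1, Cidea and Letmd1 and the highest for Acta1, Myh4 and Ckm, and Hoxc10 sits at 0 CPM in all 6 brown fat libraries.

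Cidea, a lipid droplet protein of brown adipocytes, was at 627 to 3115 CPM (median 2258) in brown fat and 0.825 to 175 CPM (median 2.53) in muscle, a log2 fold change of 6.66 ± 1.44 (edgeR adjusted p = 0.00371). Letmd1, a mitochondrial protein needed for heat production, was at 173 to 835 CPM (median 648) and 13.3 to 44.3 CPM (median 16.4), with 4.87 ± 0.46 (edgeR adjusted p = 4.14e-05). Both were lowest in brown fat quercetin 3 and highest, among muscle libraries, in quercetin 2. The potassium channel gene Kcnk3 (6.38), the proton channel gene Otop1 (6.05), the fatty acid elongase gene Elovl3 (7.40), the acyl-CoA synthetase gene Slc27a2 (7.21) and the glycerol kinase gene Gk (5.58) were called higher in brown fat as well. Dio2, the deiodinase that makes active thyroid hormone, had 14.6 to 723 CPM (median 187) in brown fat and 2.21 to 15 CPM (median 8.74) in muscle, and its groups overlapped, with brown fat quercetin 3 lowest.

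Prdm16, a switch between brown fat and muscle fates, had 10.5 to 35.5 CPM (median 31.2) in brown fat and 8.36 to 13.3 CPM (median 12.4) in muscle, a log2 fold change of 1.21 ± 0.29 (edgeR adjusted p = 0.0067). Ebf2, another such factor, differed by 1.44, and was not called without brown fat quercetin 2 or muscle vehicle 2 (highest edgeR adjusted p = 0.0509). The coactivator gene Ppargc1b was higher in brown fat (2.69), while its relative Ppargc1a was not called, with 4.53 to 91.9 CPM (median 28.2) in brown fat and 16.6 to 107 CPM (median 63.2) in muscle (-0.97 ± 0.59, edgeR adjusted p = 0.221). Cox7a1, a cytochrome oxidase subunit of heart and muscle often used to mark brown fat, was the other member not called (0.83 ± 0.38, edgeR adjusted p = 0.108). Cpt1b, which loads fatty acids onto carnitine, was called at 1.14 (edgeR adjusted p = 0.0486) but kept its call in 2 of 12 fits that each left out one library (edgeR adjusted p of 0.00338 to 0.119), those without brown fat quercetin 3 or muscle quercetin 1.

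General adipocyte genes were also higher in brown fat, less completely. Of 24 tested, 15 were called higher in brown fat and 0 in muscle, against 17.2% and 18.1% of all genes tested. Their median was 2.72. Pparg, the nuclear receptor that drives fat cell formation, was at 146 to 292 CPM (median 269) in brown fat and 7.46 to 38.8 CPM (median 15.5) in muscle (3.58 ± 0.46, edgeR adjusted p = 1.72e-04), with no overlap. Adipoq was at 458 to 903 CPM (median 801) and 3.1 to 414 CPM (median 25.9) (2.89 ± 1.04, edgeR adjusted p = 0.047). That call was kept in 3 of 12 fits with one library left out (edgeR adjusted p of 0.0019 to 0.0983), those without brown fat vehicle 1, muscle vehicle 1 or muscle vehicle 3. Lep, the hormone leptin, was not called: brown fat quercetin 3 held 248 CPM against 9 to 35.8 in the other 5, and muscle had 0.105 to 62.8 CPM (median 3.64). Muscle libraries held these transcripts too: the summed CPM of the list was 3053 to 14460 in muscle, highest in vehicle 3, and 31820 to 35090 in brown fat. Without muscle vehicle 3, 21 of the list were called. Without it, muscle quercetin 2 and brown fat quercetin 3, 23 of 24 were called, with a median of 4.30. These libraries were singled out by transcripts of fat or other tissues in these same data, so the rise is no separate evidence.

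Enzymes that build fatty acids and triglycerides were higher in brown fat. Of 23 tested, 21 were called higher in brown fat and 0 in muscle, against 17.2% and 18.1% of all genes tested. Their median was 2.94. Fasn, fatty acid synthase, was at 385 to 30076 CPM (median 14722) in brown fat and 10.9 to 899 CPM (median 141) in muscle (5.43 ± 1.25, edgeR adjusted p = 0.0053). Scd1, the stearoyl-CoA desaturase, was at 3579 to 53559 CPM (median 24384) and 20 to 2399 CPM (median 370.2) (5.19 ± 1.16, edgeR adjusted p = 0.0046). The spread inside brown fat was wide: vehicle 1 was the lowest library for both genes, with 385 and 3579 CPM, and quercetin 1 the highest. Over the whole list the summed CPM was 10950 in brown fat vehicle 1 and 28060 to 117500 in the other 5, against 1964 to 6809 in muscle.

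Among the other synthesis genes, Elovl6, an elongase of long fatty acids, differed by 5.95, Acaca, the acetyl-CoA carboxylase of fat synthesis, by 4.80, Acly, which makes cytosolic acetyl-CoA, by 4.71, and Slc25a1, the citrate carrier that feeds it, by 4.58. The final enzymes of triglyceride synthesis, Dgat1 and Dgat2, differed by 2.94 and 3.52. Acacb, whose product restrains fat oxidation, was not called (1.24 ± 0.54, edgeR adjusted p = 0.0943). In the cholesterol pathway, 12 of 21 tested were called higher in brown fat and 0 in muscle, against 17.2% and 18.1% of all genes tested. The list median was 1.49. Among the 12 were Insig1 (3.68), a sterol-sensing brake, and Sqle (2.85), squalene epoxidase.

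Genes that burn fatty acids were mostly higher in brown fat. Of 25 tested, 22 were called higher in brown fat and 0 in muscle, against 17.2% and 18.1% of all genes tested. Their median was 2.08 and their range 0.22 to 3.28. Acaa2, the last thiolase step in mitochondria, was at 760.5 to 3094 CPM (median 1958) in brown fat and 70.0 to 283 CPM (median 194) in muscle (3.28 ± 0.45, edgeR adjusted p = 2.51e-04), with no overlap. Hadh, the step before it for medium chains, differed by 2.69, Cpt2 of the carnitine shuttle by 2.20, and Decr1, needed for unsaturated chains, by 2.39. Among proteins of the lipid droplet and of lipolysis, 16 of 25 were called higher in brown fat and 1 in muscle. Those shares were likewise 17.2% and 18.1% over all genes tested. Plin2, a droplet coat protein, was at 769.7 to 2769 CPM (median 1496) and 57.7 to 209 CPM (median 121) (3.71), and Mgll, the monoglyceride lipase, differed by 2.51. The member called higher in muscle was Fitm1, a droplet protein of muscle, at -3.94. It lost its call without any one vehicle library of brown fat or without muscle quercetin 3 (highest edgeR adjusted p = 0.0665), and was -5.96 without brown fat quercetin 3. Lipoprotein lipase, Lpl, was higher in brown fat (2.13).

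**Figure D2:**
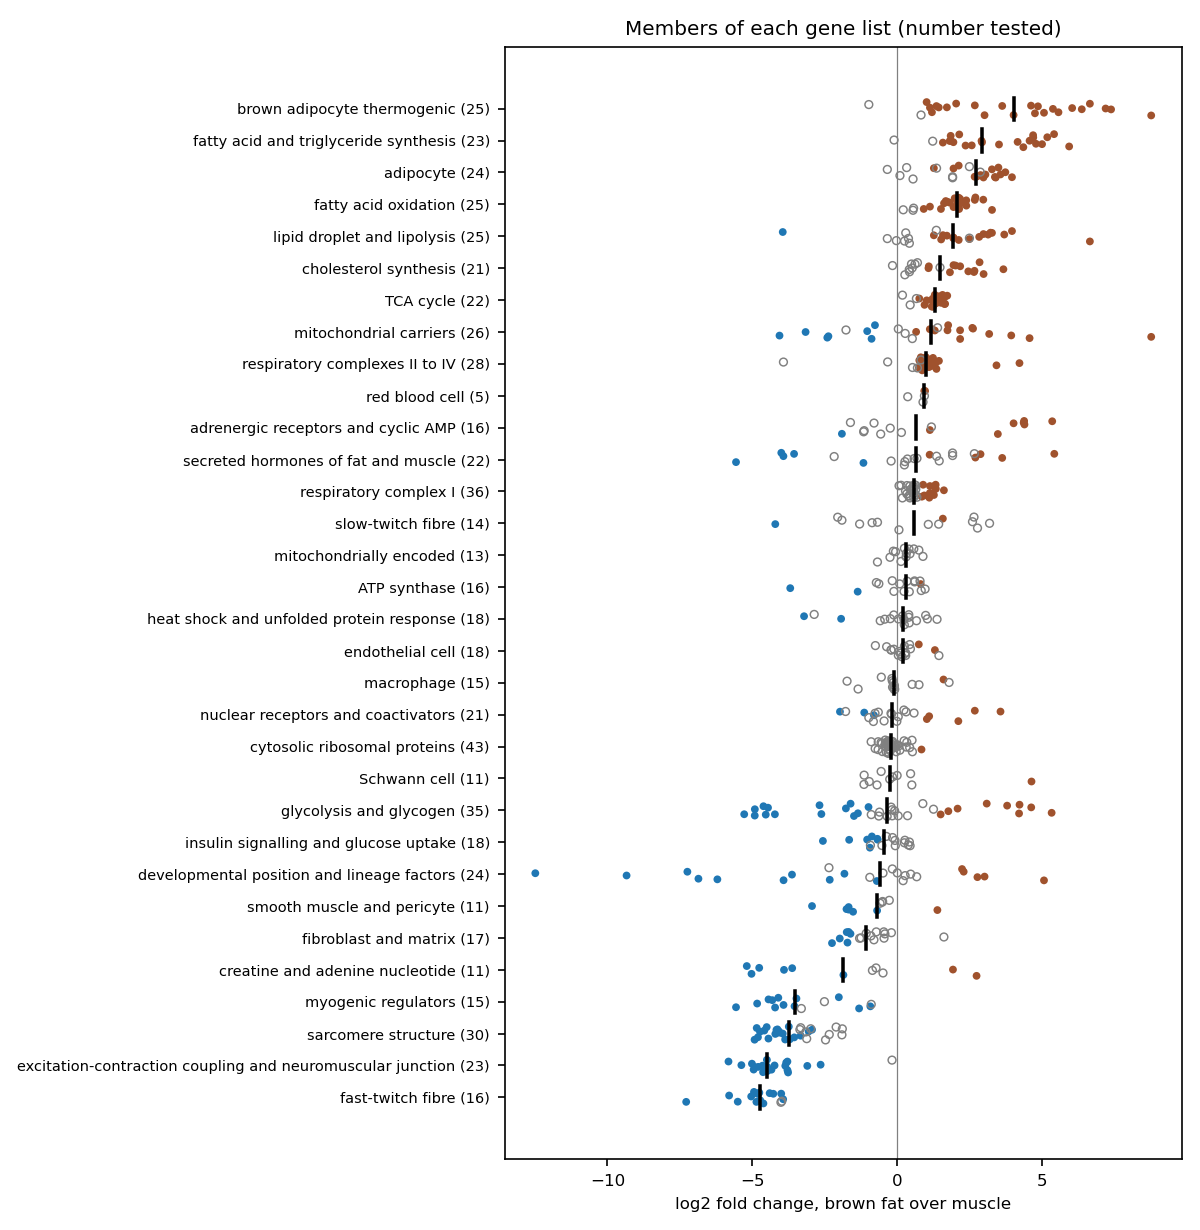
Log2 fold changes, brown fat over muscle, of the tested members of each list with more than 2 tested genes, ordered by the list's median (black bar). Filled points passed the adjusted p threshold (brown for brown fat, blue for muscle) and open points did not. The thermogenic list has a median of 4.03 and the fast-twitch list one of -4.74, while the ribosomal protein list stays between -0.89 and 0.84.

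Inside the mitochondrion, list medians were 1.33 for the citric acid cycle, 1.0 for complexes II to IV, 0.58 for complex I and 0.30 for ATP synthase. Of 22 genes of the cycle and its entry enzyme tested, 19 were called higher in brown fat and 0 in muscle. The shares of all genes tested were 17.2% and 18.1%. Cs, citrate synthase, was at 777 to 2428 CPM (median 1651) in brown fat and 410.1 to 818 CPM (median 659.6) in muscle (1.39 ± 0.31, edgeR adjusted p = 0.00481), and these ranges overlapped. For Idh3g, a subunit of isocitrate dehydrogenase, they did not: 492 to 1572 CPM (median 1222) against 286 to 419.6 CPM (median 356) (1.64 ± 0.30). In complexes II to IV, 23 of 28 were called higher in brown fat, and in complex I, 12 of 36, against 17.2% of all genes tested. Among those of complex I was Ndufab1, the acyl carrier subunit (1.62). The complex I count was 8 to 17 over fits with one library left out. With vehicle alone it was 0 of 36, against 4.09% of all genes in that fit. For complexes II to IV that fit called 2 of 28 higher in brown fat and 1 in muscle. The count for complexes II to IV was 11 to 25 over fits with one library left out. It was 11 without brown fat quercetin 1, muscle quercetin 1 or muscle quercetin 2, 12 without brown fat vehicle 2 or vehicle 3, and 15 without muscle vehicle 1.

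The genes of ATP synthase, which makes ATP from the proton gradient, were called in 3 of 16 cases, against 35.2% of all genes tested in either direction. Of the subunit and inhibitor genes tested, 1 was called higher in brown fat, Atp5h (0.82), and 2 higher in muscle. The brown fat count was 0 in 7 of the 12 fits with one library left out, 3 to 4 without brown fat vehicle 1, brown fat quercetin 3 or muscle vehicle 2, and 4 both with scaling by library totals and with DESeq2. Atp5g1 (ENSMUSG00000006057, chromosome 11, 96068852 to 96075670, minus strand), one of 3 genes for the same c subunit of the membrane ring, was at 30.7, 7.5 and 17.5 CPM in the vehicle and 11.7, 4.77 and 352 CPM in the quercetin brown fat libraries. In muscle it was at 405 to 933 CPM (median 499). No brown fat library reached the lowest muscle library, and the high one was quercetin 3, which held muscle transcripts. The log2 fold change was -3.68 ± 1.02 (edgeR adjusted p = 0.014), and -5.54 (edgeR adjusted p = 2.52e-05) without that library. Since muscle transcripts in these same data singled the library out, the larger difference without it is no separate evidence. The other c subunit genes, Atp5g2 (-0.10 ± 0.27, edgeR adjusted p = 0.791) and Atp5g3 (-0.63 ± 0.34, edgeR adjusted p = 0.177), were not called. Atp5j, a stalk subunit, was the second gene higher in muscle (-1.36 ± 0.38).

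Of the 13 protein genes of mitochondrial DNA, 0 were called in either direction by edgeR, against 35.2% of all genes tested. Their median was 0.32 and their range -0.67 to 0.90. DESeq2 called 3 of them higher in brown fat. Their share of all counts was 10.5 to 16.2% in brown fat and 6.91 to 11.5% in muscle. The largest estimate was that of mt-Cytb, at 0.90 ± 0.44 (edgeR adjusted p = 0.13). mt-Co1, a core subunit of cytochrome oxidase, was at 32349 to 63948 CPM (median 56985) in brown fat and 29563 to 52014 CPM (median 33029) in muscle.

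**Figure D3:**
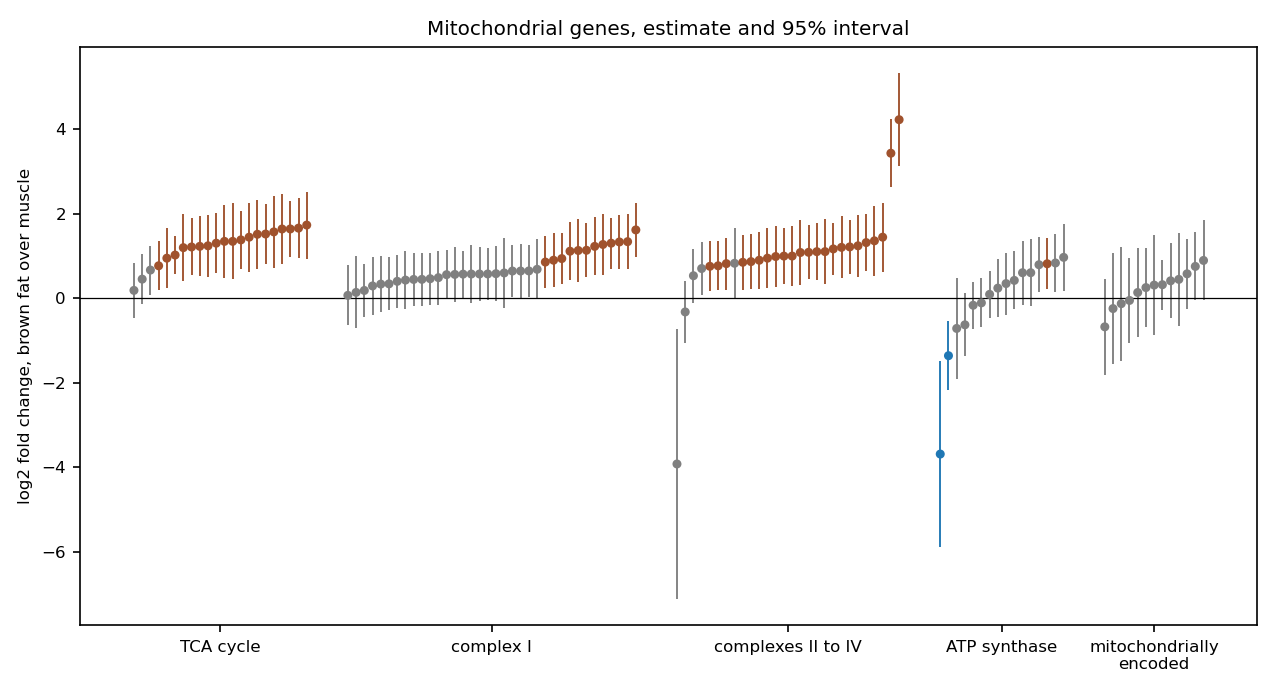
Log2 fold change, brown fat over muscle, with its unadjusted 95% interval, for each tested gene of 5 mitochondrial groups, sorted within the group and coloured where it passed the adjusted p threshold. Cox6a1 and Cox8a, at 4.23 and 3.44, lie above the other subunits of complexes II to IV, and Atp5g1, at -3.68, lies below the other ATP synthase genes.

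Carriers of the inner membrane divided between the tissues, with 14 of 26 called higher in brown fat and 7 in muscle, against 17.2% and 18.1% of all genes tested. Ucp3, a relative of UCP1, was at 55.4 to 159 CPM (median 101) in brown fat and 471 to 619.6 CPM (median 499) in muscle (-2.37 ± 0.30, edgeR adjusted p = 1.75e-04), with no overlap. Slc25a12, the aspartate and glutamate carrier, was higher in muscle (-4.06), while Slc25a20, the acylcarnitine carrier, was higher in brown fat (2.18) and Slc25a39, a glutathione carrier, by 2.60. Both subunits of the pyruvate carrier, Mpc1 (1.23) and Mpc2 (1.31), were higher in brown fat.

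On the muscle side stood the contractile apparatus. Of 30 sarcomere genes tested, 20 were called higher in muscle, against 18.1% of all genes tested, and 0 in brown fat, with a median of -3.72, and of 16 fast-twitch genes, 14 were called, with a median of -4.74. Acta1, skeletal muscle actin, was at 12721 to 31991 CPM (median 19793) in muscle and 1.13 to 8256 CPM (median 264) in brown fat (-4.07 ± 1.42, edgeR adjusted p = 0.041). Myh4, the myosin of the fastest fibres (ENSMUSG00000057003, chromosome 11, 67238029 to 67260446, plus strand), was at 17448 to 36121 CPM (median 22129) and 1.13 to 5256 CPM (median 270.4) (-4.72 ± 1.42, edgeR adjusted p = 0.0212). Neither gene's groups overlapped, but brown fat spread widely, from its lowest library, quercetin 2, to its highest, quercetin 3. Without brown fat quercetin 3, which was singled out above by such muscle transcripts, 29 of 30 sarcomere and 16 of 16 fast-twitch genes were called, with medians of -5.63 and -6.62. Acta1 was then -6.27 (edgeR adjusted p = 0.00344) and Myh4 -6.87 (edgeR adjusted p = 0.00168). Given how that library was singled out, these larger differences are no separate evidence. Without brown fat vehicle 3 the counts fell to 12 and 8 and Myh4 lost its call (edgeR adjusted p = 0.0523). Acta1 kept its call in 2 of the 12 fits with one library left out, those without brown fat quercetin 2 or quercetin 3 (edgeR adjusted p of 0.00344 to 0.0895).

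Of 23 genes of the junction between nerve, membrane and calcium store, 22 were called higher in muscle, against 18.1% of all genes tested. Their median was -4.47. Jph1, which ties the surface membrane to the calcium store, was at 276 to 573 CPM (median 418) in muscle and 3.64 to 41.2 CPM (median 6.24) in brown fat (-4.64 ± 0.70, edgeR adjusted p = 4.29e-04). Cacna2d1, a calcium channel subunit, differed by -3.78, Srl, a calcium-binding protein of the store, by -3.86, and Chrnb1, of the acetylcholine receptor, by -2.64. The calcium release channel Ryr1 was at 2024 to 3574 CPM (median 2594) against 0.433 to 393 CPM (median 25.4) (-4.51). The one tested member not called was Sln, sarcolipin, an inhibitor of the calcium pump, with 11.7 to 55.4 CPM (median 21.6) in muscle and 0 to 168 CPM (median 2.28) in brown fat (-0.17 ± 1.47, edgeR adjusted p = 0.941).

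Slow-twitch genes were mostly not called. Of 14 tested, 1 was called higher in brown fat (Atp2a2, 1.59) and 1 higher in muscle (Mb, myoglobin, -4.20). Both shares lay below the 17.2% and 18.1% of all genes tested. The median of 0.58 reversed to -2.19 without brown fat quercetin 3, where 4 were called higher in muscle. Tnnt1, the slow troponin T, was at 1016 CPM in brown fat quercetin 3 and 0.0867 to 94.1 in the other 5 brown fat libraries, against 1.55 to 104 CPM (median 5.36) in muscle. Myh7, the slow myosin, was at 250.4 CPM in that library, 115 in brown fat vehicle 1, 0 to 4.06 in the other 4 and 0.31 to 31.1 CPM (median 1.85) in muscle. Muscle vehicle 2 was the highest muscle library for both. Summed over the slow-twitch list, brown fat quercetin 3 held 8879 CPM, inside the muscle range of 2194 to 9641, while its sum over the fast-twitch list, 28650 CPM, lay below the muscle range of 71470 to 122200. What these transcripts do to the other brown fat values was not tested.

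Of 15 myogenic regulators tested, 12 were called higher in muscle and 0 in brown fat, against 18.1% and 17.2% of all genes tested. Their median was -3.54. Myf5, the first myogenic factor and a mark of the shared progenitor, was low in both, at 1.16 to 2.48 CPM (median 1.63) in muscle and 0 to 0.943 CPM (median 0) in brown fat, where 5 libraries had 0 counts (-3.47 ± 0.91, edgeR adjusted p = 0.00923). Myod1, the master regulator of muscle, was at 5.37 to 78.0 CPM (median 44.2) and 0 to 19.5 CPM (median 0.581) (-4.31), with brown fat quercetin 3 inside the muscle range. Mstn, the growth inhibitor myostatin, was at 26.8 to 119 CPM (median 38.4) and 0 to 3.21 CPM (median 0.251) (-5.56) without overlap. Mef2c, which binds promoters of contractile genes, was higher in muscle (-3.92).

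The promoters of 4 genes are shown as examples of genes that set the tissues apart, 3 of them higher in muscle and Ucp1 higher in brown fat. Each sequence is the 250 bases before the RefSeq transcript start in build GRCm38.p6, 5′ to 3′ on the gene's strand, for Myh4 (chr11:67237562-67237811, plus strand), Acta1 (chr8:123894776-123895025, minus strand), Pygm, muscle glycogen phosphorylase (chr19:6384158-6384407, plus strand), and Ucp1 (chr8:83290098-83290347, plus strand). Capitals mark every match to the E-box CAGCTG, the TATA box TATAAA, the CArG box bound by serum response factor, the MEF2 box, the nuclear receptor half-site AGGTCA and its longer form TCAAGGTCA, on either strand; matches may overlap.
Myh4: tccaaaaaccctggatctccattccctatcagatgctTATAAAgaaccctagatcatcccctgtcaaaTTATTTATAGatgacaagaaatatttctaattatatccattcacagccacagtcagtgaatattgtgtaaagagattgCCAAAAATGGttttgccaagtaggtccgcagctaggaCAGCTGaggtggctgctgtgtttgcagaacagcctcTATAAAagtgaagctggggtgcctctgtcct
Acta1: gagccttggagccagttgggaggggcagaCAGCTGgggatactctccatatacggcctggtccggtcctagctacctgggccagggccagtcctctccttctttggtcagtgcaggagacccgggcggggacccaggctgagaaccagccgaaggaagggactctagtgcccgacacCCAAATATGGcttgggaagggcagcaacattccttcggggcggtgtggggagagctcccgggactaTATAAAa
Pygm: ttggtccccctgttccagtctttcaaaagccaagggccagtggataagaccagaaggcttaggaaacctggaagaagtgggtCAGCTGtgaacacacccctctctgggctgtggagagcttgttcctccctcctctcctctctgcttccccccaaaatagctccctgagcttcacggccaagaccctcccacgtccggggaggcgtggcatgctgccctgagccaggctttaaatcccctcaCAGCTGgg
Ucp1: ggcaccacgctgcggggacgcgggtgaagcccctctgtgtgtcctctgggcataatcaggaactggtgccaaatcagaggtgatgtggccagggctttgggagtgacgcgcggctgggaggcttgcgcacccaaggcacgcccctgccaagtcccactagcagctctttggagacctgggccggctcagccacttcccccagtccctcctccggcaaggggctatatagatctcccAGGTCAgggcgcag

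Myh4 held 1 MEF2 box 182 bases before the start, 1 CArG box at 104, 1 E-box at 67 and 3 TATA boxes, at 213, 179 and 31, of which the one at 179 overlaps the MEF2 box. Acta1 held an E-box at 221, a CArG box at 73 and a TATA box at 7 bases before the listed start, and Pygm held 2 E-boxes, at 168 and 8. Ucp1 held a single half-site, AGGTCA, at 14. Of 9964 tested genes with a promoter sequence available, 14.6% held CAGCTG. The share was 30.1% of the 173 called higher in muscle with an estimate of at least 16-fold. For the 70 such genes called higher in brown fat it was 17.1%. The MEF2 box was in 2.31%, 12.1% and 0% of these sets. TATAAA was in 8.25%, 16.2% and 11.4%. The half-site AGGTCA was in 13.1%, 20.8% and 30.0%, and the CArG box in 1.48%, 2.89% and 4.29%. These shares describe letters in a 250-base window and were not tested.

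In glycolysis and glycogen metabolism, related genes for the same step were called in opposite directions. Of 35 tested, 9 were called higher in brown fat and 14 in muscle, against 17.2% and 18.1% of all genes tested, with a median of -0.34. Pygm was at 4268 to 6602 CPM (median 5349) in muscle and 2.51 to 872 CPM (median 54.2) in brown fat (-4.91 ± 1.18, edgeR adjusted p = 0.00673), and Pygl, the liver form of glycogen phosphorylase, at 86.3 to 1142 CPM (median 769) in brown fat and 0.825 to 47.7 CPM (median 6.3) in muscle (5.34 ± 0.99, edgeR adjusted p = 0.00154). Neither pair of ranges overlapped. Phosphofructokinase genes were also called in both directions, with Pfkm higher in muscle (-4.21) and Pfkl and Pfkp higher in brown fat (4.64 and 3.10). Eno3 and Pgam2, the muscle enolase and phosphoglycerate mutase, were higher in muscle (log2 fold changes of -4.53 and -4.45), and Eno1 and Pgam1, the widely expressed forms, higher in brown fat (4.22 and 3.81). Glycogen synthase also split, Gys1 at -1.48 and Gys2 at 4.23. The kinase that turns on glycogen breakdown was higher in muscle for subunits Phka1 (-4.61) and Phkg1 (-5.28).

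Of the creatine and adenine nucleotide genes that buffer ATP, 6 of 11 tested were called higher in muscle and 2 in brown fat. The shares of all genes tested were 18.1% and 17.2%. Ckm, muscle creatine kinase, was at 5023 to 10369 CPM (median 6734) in muscle and 0.26 to 1193 CPM (median 72.9) in brown fat (-5.02 ± 1.32, edgeR adjusted p = 0.0108), and -6.96 without brown fat quercetin 3. Ckb, the brain form, was higher in brown fat (1.93). Ak1, the adenylate kinase of the cytosol, was higher in muscle (-3.90). Ckmt2, the mitochondrial creatine kinase of muscle, was higher in muscle (-4.76) (edgeR adjusted p = 0.032), a call lost without brown fat quercetin 1 or any one vehicle library of brown fat (highest edgeR adjusted p = 0.0797).

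Levels within a family were compared per kilobase of exon, as CPM per kb (mean ± SD, n = 6). For cytochrome oxidase subunit 6A, Cox6a1 stood at 4619 ± 1855 in brown fat and 246 ± 163 in muscle, and Cox6a2 at 158 ± 328 and 1544 ± 703. The first was called (4.23 ± 0.51, edgeR adjusted p = 1.29e-04) and the second was not (-3.92 ± 1.47, edgeR adjusted p = 0.055). Cox6a2 was called without brown fat quercetin 3, at -6.43 (edgeR adjusted p = 0.00163), without brown fat quercetin 2, and without both libraries holding the other tissue (-6.38). It was also called with the replicate number as a block (-6.20, edgeR adjusted p = 0.01) and with vehicle alone (-5.33, edgeR adjusted p = 0.0267). So it was with no filter on low counts (-3.92, edgeR adjusted p = 0.0118) and by DESeq2 (adjusted p = 0.0104). It stayed uncalled with scaling by library totals, with DESeq2 size factors in edgeR, on the first flow cell and with quercetin alone. Brown fat quercetin 3 was singled out by muscle transcripts in these same data, so the calls without it are no separate evidence. For the adenine nucleotide carrier, Slc25a4 exceeded Slc25a5 in muscle, at 1648 ± 615 against 65.7 ± 17.2, while in brown fat they stood at 329.9 ± 276 and 298 ± 74.5, within the spread of the libraries.

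For subunit 8, both genes were called higher in brown fat: Cox8a at 1712 ± 526 and 157 ± 66.6 CPM per kb (3.44), and Cox8b at 4144 ± 1684 and 1603 ± 615 (1.36). Among the calcium pumps, Atp2a1 of fast muscle stood at 3630 ± 769.9 in muscle and 118 ± 156 in brown fat, and Atp2a2, the pump of slow muscle and other cells, at 20.8 ± 9.08 and 60.4 ± 34.5. Parts of the translation machinery had muscle forms. Eef1a2 was at 952 ± 294 in muscle and 51.5 ± 80.0 in brown fat, against 363 ± 69.8 and 848 ± 129 for Eef1a1. Rpl3l, a muscle form of ribosomal protein L3, was at 302 ± 87.5 and 23.7 ± 47.9, against 55.7 ± 21.0 and 97.4 ± 16.3 for Rpl3, the one of 43 tested ribosomal protein genes that was called. Over all genes tested the share called in either direction was 35.2%. Without brown fat quercetin 3, 6 of the 43 were called higher in muscle, and without muscle vehicle 1, 2 in brown fat. Reads that match both members of such a pair could be split between them, depending on the authors' counting.

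**Figure D4:**
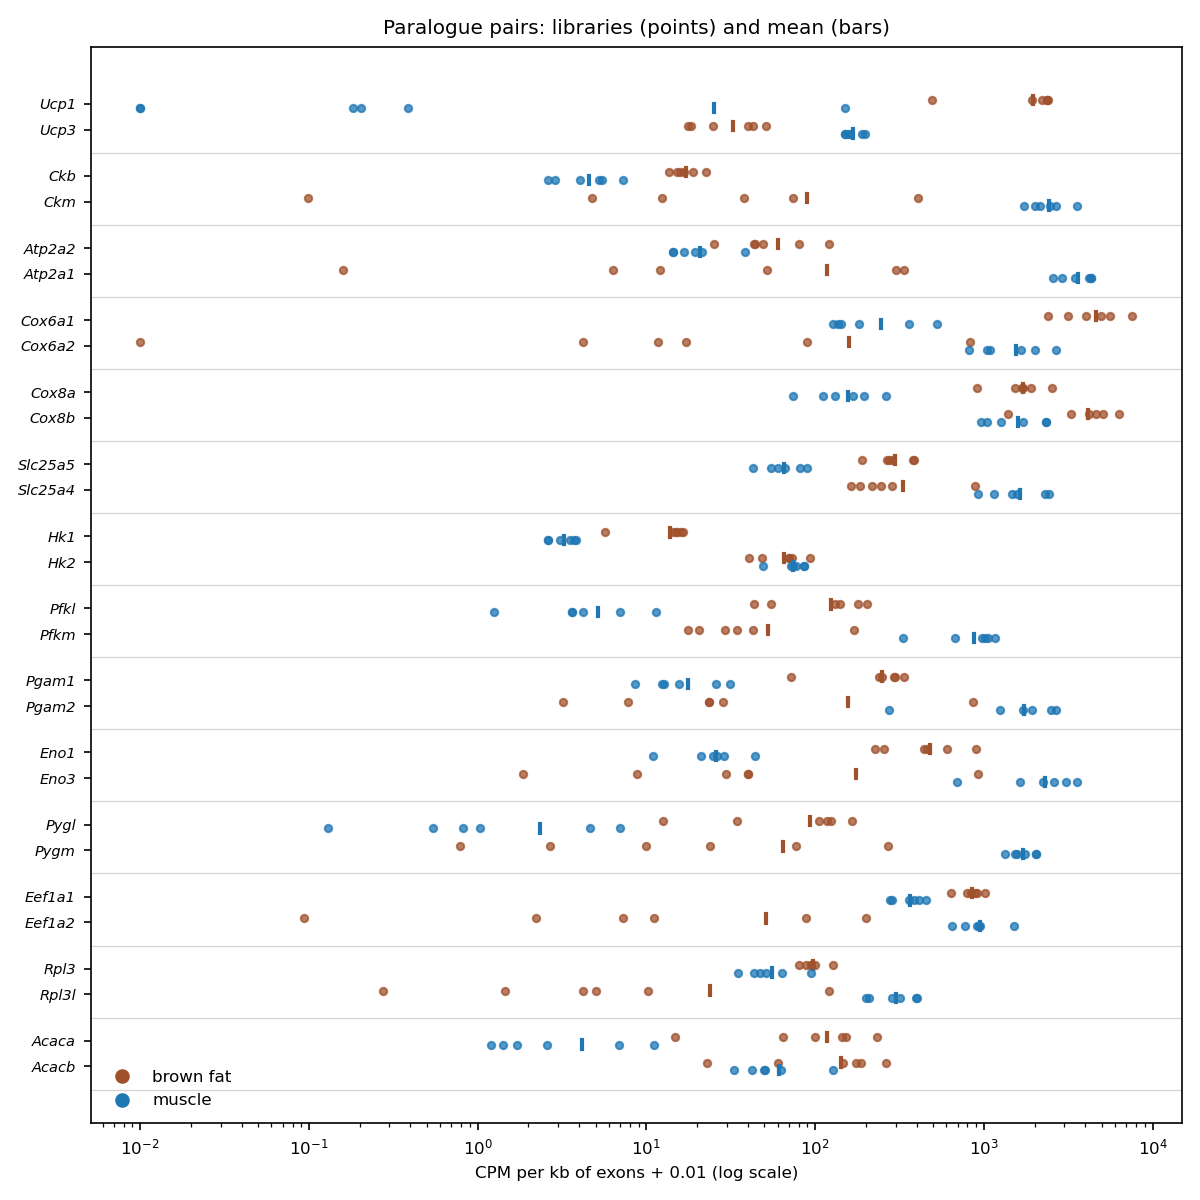
CPM per kb of exons plus 0.01, on a log scale, for 14 pairs of related genes, with a point for each library and a bar at the mean of 6 in each tissue. In 10 of the pairs, among them Ucp1 and Ucp3, Eno1 and Eno3, and Pygl and Pygm, one gene was called higher in brown fat and its partner higher in muscle.

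Genes that mark position along the body and limb were called in both directions. Of 24 tested, 5 were called higher in brown fat and 10 in muscle, against 17.2% and 18.1% of all genes tested, so that the brown fat share lay near that of all genes. Hoxc10 (ENSMUSG00000022484, chromosome 15, 102966796 to 102971893, plus strand), a homeobox gene of the hind part of the body, had 0 counts in all 6 brown fat libraries and 42.4 to 103 CPM (median 67.0) in muscle. Against a floor of 3 counts over the 6 brown fat libraries it was at least 1337-fold higher in muscle (edgeR adjusted p = 2.24e-05). Its neighbour Hoxc11 also had 0 counts in brown fat and was at least 152.9-fold higher in muscle, at 4.92 to 12.3 CPM (median 6.55). Hoxc9 was at 12.6 to 22.6 CPM (median 19.5) in muscle and 0 to 0.283 CPM (median 0.102) in brown fat (-7.24 ± 0.49, edgeR adjusted p = 8.58e-06), and Hoxa10 at 15.7 to 23.5 CPM (median 17.5) and 0 to 1.32 CPM (median 0) (-6.20). Brown fat quercetin 3, which held muscle transcripts at 1193 CPM of Ckm, held 0 counts of Hoxc10 and Hoxc11.

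More anterior members of the same clusters gave other values. Hoxc6 was at 9.13 to 16.1 CPM (median 9.71) in brown fat and 7.53 to 13.2 CPM (median 11.3) in muscle (0.01 ± 0.21, edgeR adjusted p = 0.97), Hoxc8 was not called (0.68 ± 0.46, edgeR adjusted p = 0.273), and Hoxa5 was higher in brown fat, at 14.1 to 36.7 CPM (median 29.9) against 3.2 to 8.2 CPM (median 6.14) (2.25 ± 0.29, edgeR adjusted p = 1.90e-04). Zic1 and Lhx8, used as marks of interscapular brown fat, were higher in brown fat (3.03 and 5.08). So was Tbx5, a T-box gene of the forelimb field (2.78), while Tbx4, its hind limb relative, was higher in muscle (-2.32, called only without brown fat vehicle 1 or quercetin 3 among the 12 fits with one library left out, with edgeR adjusted p values up to 0.0825). Tbx15, a T-box gene of fast fibres that is also known in fat, was at 209.9 to 344 CPM (median 261) in muscle and 4.75 to 66.4 CPM (median 9.09) in brown fat (-3.92), and Tbx1 differed by -6.86. In white fat, on the scale of all 18 libraries, Hoxc10 was at 1.86 to 11.5 CPM, and Zic1 had 0 CPM in every library.

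Several receptors and messengers that switch on heat production were higher in brown fat. Of 16 adrenergic and cyclic AMP genes tested, 7 were called higher in brown fat and 1 in muscle, against 17.2% and 18.1% of all genes tested. The muscle count was 3 without brown fat quercetin 3 and 2 without brown fat quercetin 2. The beta-1 receptor Adrb1 was at 4.15 to 35.3 CPM (median 20.4) in brown fat and 0 to 1.52 CPM (median 0.226) in muscle (5.36 ± 0.84, edgeR adjusted p = 5.22e-04), and the alpha-1A receptor Adra1a at 18.6 to 85.9 CPM (median 63.2) and 0.516 to 6.42 CPM (median 2.39) (4.40). Adrb3, the beta-3 receptor of adipocytes, varied widely in brown fat, from 3.37 CPM in vehicle 1 and 93.2 in quercetin 3 to 709 in vehicle 2, against 0.206 to 80.1 CPM (median 2.43) in muscle (4.03 ± 1.43, edgeR adjusted p = 0.0445). Its call was kept in 4 of 12 fits with one library left out (edgeR adjusted p of 0.0206 to 0.0865), those without brown fat vehicle 1, brown fat quercetin 3, muscle quercetin 2 or muscle vehicle 3. Adcy3, a cyclase that makes cyclic AMP, differed by 4.38. The regulatory subunits of protein kinase A split, Prkar2b higher in brown fat (4.39) and Prkar2a higher in muscle (-1.90).

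Of 22 secreted factors tested, 5 were called higher in brown fat and 5 in muscle, near the 17.2% and 18.1% of all genes tested. Angptl8, an inhibitor of lipoprotein lipase, was at 13.3 to 61.3 CPM (median 33.7) in brown fat and 0 to 2.72 CPM (median 0.245) in muscle (5.43 ± 0.80, edgeR adjusted p = 3.74e-04), and Nrg4, a brown fat hormone, differed by 3.64. Higher in muscle were Bdnf (-3.92), at no more than 0.283 CPM in brown fat, Fndc5, the irisin precursor (-3.55), and Mstn. Without muscle vehicle 3, 11 of the list were called higher in brown fat, and without brown fat vehicle 1 or vehicle 2, 3 higher in muscle. Of 21 nuclear receptors and coactivators, 5 were called higher in brown fat, among them Ppara (2.12) and the thyroid hormone receptor Thrb (1.11), and 3 in muscle, such as Nr4a3 (-1.97). Those counts lie near the 17.2% and 18.1% of all genes. Ppara was at 1.51 CPM in brown fat quercetin 3 and 53.9 to 156 in the other 5 libraries, and was called in 7 of 12 fits with one library left out. It was not called without brown fat quercetin 2, muscle quercetin 1, muscle quercetin 3, muscle vehicle 1 or muscle vehicle 2 (highest edgeR adjusted p = 0.0771). Thrb was not called without brown fat vehicle 2 (edgeR adjusted p = 0.0511).

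In the insulin pathway, 7 of 18 tested were called higher in muscle and 0 in brown fat, against 18.1% and 17.2% of all genes tested. Slc2a4, the insulin-dependent glucose transporter of both tissues, was at 194 to 692 CPM (median 435) in brown fat and 381 to 787 CPM (median 606) in muscle and was not called (-0.52 ± 0.31, edgeR adjusted p = 0.219). Tbc1d1, which holds that transporter inside the cell in muscle, was at 49.4 to 126 CPM (median 90.6) in muscle and 10.1 to 23.3 CPM (median 11.9) in brown fat (-2.56 ± 0.30, edgeR adjusted p = 1.14e-04). The insulin pathway count was 4 without any one of brown fat vehicle 2, quercetin 1 and quercetin 2, muscle vehicle 3 and muscle quercetin 1. Of 18 heat shock and unfolded protein genes, 2 were called higher in muscle, a share below the 18.1% of all genes: Hspb6 at -3.21 and Hspb8 at -1.93, both small heat shock proteins. In brown fat edgeR called 0 (2 had an unadjusted p under 0.05), while 2 were called by DESeq2, 2 by edgeR with the replicate number as a block, and 0 to 2 by edgeR with one library left out, the highest without brown fat vehicle 3.

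Markers of other cell types were called in shares that differed by list. Of 18 endothelial genes tested, 2 were called higher in brown fat, Kdr (1.31), the receptor of vascular growth factor, and Cdh5 (0.75), a share below the 17.2% of all genes. The summed CPM of the list was 1851 to 2329 in brown fat and 1367 to 1858 in muscle. Of 17 fibroblast and matrix genes, 6 were called higher in muscle, against 18.1% of all genes, such as Smoc2 (-2.24) and Dcn, decorin (-1.67). That count was 12 without muscle vehicle 1, whose sum of 955 CPM lay below the 2562 to 6394 of the other 5, and 3 without muscle vehicle 3. Of 15 macrophage genes, Mpeg1 alone was called (1.60, higher in brown fat). Its call was kept in 4 of 12 fits with one library left out (edgeR adjusted p of 0.0205 to 0.158), those without brown fat vehicle 2, brown fat quercetin 1, brown fat quercetin 2 or muscle quercetin 1. Without brown fat vehicle 1 or muscle vehicle 1, 2 macrophage genes were called higher in muscle. Cdh5 kept its call in 7 of 12. Smooth muscle and pericyte genes were called higher in muscle in 6 of 11, against 18.1% of all genes, among them Myh11, smooth muscle myosin (-1.67), and in brown fat in 1, Cspg4, a proteoglycan of pericytes (1.40). S100b, listed among Schwann cell markers and also made by brown adipocytes, was higher in brown fat (4.63), while the other 10 tested Schwann cell genes were not called. The Schwann cell list summed to 558 CPM in brown fat quercetin 3 and 226 to 303 in the other 5 brown fat libraries, and without it 4 genes were called higher in muscle. Of the red blood cell genes, 2 of 5 were called higher in brown fat, against 17.2% of all genes, and 0 to 3 with one library left out. The epithelial keratin genes Krt8 (-4.74) and Krt18 (-4.12) were called higher in muscle, but for each the groups overlapped. The summed CPM of their list was 3.20 in muscle quercetin 1 and 38.7 in muscle quercetin 2, the library with seminal vesicle transcripts. In brown fat it was 3.59 to 6.90 CPM. Of 12 lymphocyte genes, 2 were tested and Mzb1 was called higher in muscle (-1.96), except without muscle quercetin 3 (edgeR adjusted p = 0.0568).

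The comparison was repeated on the vehicle libraries alone, 3 against 3. Of 13558 genes tested, 554 (4.09%) were higher in brown fat and 786 (5.8%) higher in muscle. In the thermogenic list, 17 of 26 were called, with a median of 4.45, and in the fast-twitch list 12 of 16, with a median of -5.70. Ucp1 was at 3628, 3899 and 3175 CPM in brown fat and 0.619, 0.315 and 0.284 in muscle, a log2 fold change of 13.09 ± 0.79 (SE, n = 3 and 3; edgeR adjusted p = 0.00295). Of the fat synthesis genes 6 of 23 were called, with a median of 2.87, and of the citric acid cycle genes 3 of 22, with 1.53. These counts rest on single libraries: 18 genes in brown fat and 10 in muscle were called without brown fat vehicle 3, 76 and 195 without muscle vehicle 2, 155 and 277 without brown fat vehicle 2, and 903 and 901 without muscle vehicle 3.

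On the quercetin libraries alone, 1208 (8.9%) of 13568 genes were higher in brown fat and 1194 (8.8%) in muscle. This arm holds brown fat quercetin 3 and muscle quercetin 2. Here 17 of 23 fat synthesis genes, 7 of 25 thermogenic genes and 1 of 16 fast-twitch genes were called, with list medians of 3.49, 4.12 and -3.77. Without brown fat quercetin 3, 2413 and 2602 of all genes were called in this arm. Without brown fat quercetin 1, muscle quercetin 1 or muscle quercetin 3, 0 or 1 were called in brown fat and 2 in muscle, and without brown fat quercetin 2 or muscle quercetin 2, 444 to 777 in brown fat and 414 to 735 in muscle. The arms share no library. Of the 554 genes called higher in brown fat with vehicle, 524 were tested with quercetin, and all 524 had the same sign there and 377 were called. Of the 786 called higher in muscle, 777 were tested with quercetin, 773 had the same sign and 415 were called. No gene was called in opposite directions.

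**Figure D5:**
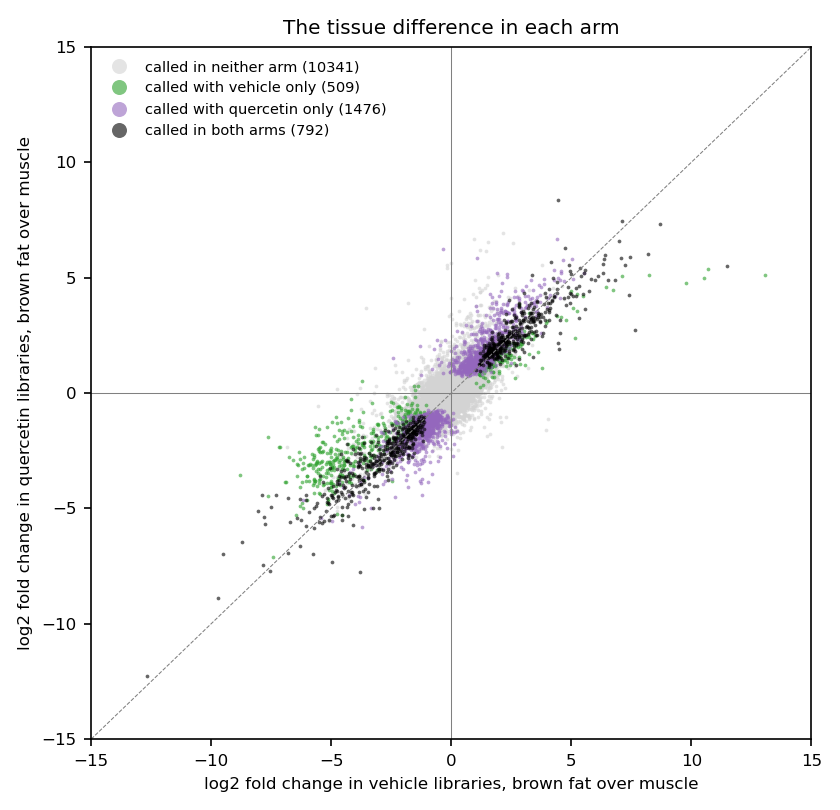
Log2 fold change, brown fat over muscle, of the 13118 genes tested in both arms, in the vehicle libraries (x axis) and the quercetin libraries (y axis), coloured by the arm in which the adjusted p passed. The 792 genes called in both arms lie at the lower left and the upper right.

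Whether the tissue difference itself differed with quercetin was tested as an interaction. Of 13378 genes, 0 passed with edgeR (smallest adjusted p = 1). An unadjusted p under 0.05 was found for 181, fewer than the 668.9 that chance alone would give. DESeq2 called 1 gene, the immunoglobulin segment Igkv3-2 (DESeq2 adjusted p = 0.0467), a gene with near-identical copies. Ucp1 had an interaction of -7.95 ± 2.96 (edgeR adjusted p = 1), the quercetin arm being the one with Ucp1 in a muscle library and less Ucp1 in a brown fat library.

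Levels in white fat, on the scale of all 18 libraries, place the brown fat side of the comparison. Ucp1 was at 0 to 19.1 CPM in white fat and Kng2, a kininogen gene, at 0 to 0.877, against brown fat medians of 4302 and 91.9. Adipoq was at 18.9 to 1053 CPM in white fat and had a brown fat median of 940.4. Kng2 was also one of the 10 genes with the largest differences among those at 50 CPM or more without overlap, at 20.9 to 107 CPM (median 81.2) in brown fat and 0 to 1.09 CPM (median 0.466) in muscle (7.26 ± 0.72, edgeR adjusted p = 4.64e-05). The others on the brown fat side were Ucp1, Elovl3, Slc27a2, Cidea, Kcnk3, the stem cell receptor gene Lgr6 (6.57), Itih4 (6.50), a plasma protein gene of the inter-alpha-trypsin inhibitor family, Aspg (6.16), an asparaginase, and Ppp1r3b (6.06), a glycogen-targeting subunit.

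On the muscle side the 10 were Hoxc10, Tbx1, the kyphoscoliosis gene Ky (-7.58), Myoz3 of the Z disc (-6.40), Prkag3, the muscle subunit of AMP-activated kinase (-6.01), the potassium channel gene Kcnc1 (-5.88), Actc1, cardiac actin (-5.80), Camk2a, a calcium-driven kinase (-5.56), and the ubiquitin ligase genes Asb15 (-5.86) and Asb2 (-5.58). Prkag3 was at 17.6 to 162 CPM (median 118) in muscle and 0 to 12.1 CPM (median 0.407) in brown fat (edgeR adjusted p = 8.37e-04), and Asb2 at 453 to 1032 CPM (median 788) and 0.953 to 83.4 CPM (median 4.89) (edgeR adjusted p = 0.0012). Brown fat quercetin 3 was the highest brown fat library for both genes.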

How the data were processed

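RNA from brown fat, muscle and white fat was sequenced with NEBNext Ultra libraries, per the labels' protocols, and the authors deposited a table of raw read counts per gene for each of 18 libraries. The submitters' processing notes name HISAT2, HTSeq, DESeq2 and mm10; no source used here gives versions, annotation release or strand setting. Lines that name no gene (5 counting summaries) were dropped, leaving 53465 genes, of which 53360 matched a symbol in GENCODE M21 (GRCm38), which also gave coordinates and exon lengths. Counts were tested in edgeR 4.0.16 (R 4.3.3): genes kept by filterByExpr on tissue (minimum 10 counts, total 15), TMM scaling, and a quasi-likelihood F test of tissue with treatment as covariate, two-sided, with Benjamini-Hochberg adjustment over all genes tested and a threshold of 0.05. Vehicle and quercetin libraries were also fitted alone, and the interaction in a model of 4 group means. CPM are counts scaled by library total, on the TMM scale of the 12 libraries. Any 2 libraries of a group differed well beyond sampling noise (chi-square per degree of freedom of at least 29.8).

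The members and lists were chosen with earlier results of these data known. The named genes are the 10 with the largest differences in each direction (50 CPM or more, no overlap), the 4 smallest p of each of 35 lists (726 entries), all of 25 gene families, a panel of 13 genes, the 5 most abundant genes of each tissue and the smallest p of the interaction; the text leaves some out. Chosen after their values were seen were Acly, Adrb3, Atp5g2, Atp5g3, Cs, Dio2, Ebf2, Fasn, Fitm1, Fndc5, Gk, Gys1, Gys2, Hoxa10, Hoxa5, Hoxc6, Hoxc8, Insig1, Mef2c, Mpc1, Mpc2, Myh7, Otop1, Phkg1, Prkar2b, Ryr1, Slc25a1, Slc25a12, Slc25a20, Sln, Tbx15, Tbx4, Tbx5, Thrb and Tnnt1. The counts of members under alternatives were also added after the values were seen.

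Same-numbered libraries of the tissues deviated together with vehicle (correlations of 0.26, 0.135 and 0.296), while differently numbered ones had -0.347 to 0.167. With quercetin not every same-numbered pair did (-0.163, 0.216 and 0.139), and differently numbered ones had -0.239 to 0.151. The deviations are from a mean of 3 libraries, so the pairs are not independent. With vehicle, brown fat 3 and muscle 2 (0.167) exceeded a same-numbered pair (0.135). This is at most a weak hint from the data that the number pairs libraries in the vehicle arm. The labels do not state it, so the main fits, including those of each arm alone, used no block. Alternatives were DESeq2 1.42.0, other scaling, no count filter, the replicate block, the first flow cell alone and leaving out each library. The fit on the first flow cell alone is the same fit as that without muscle quercetin 3. The fits were tested on simulated counts with known changes, drawn for each gene on its own. The simulation held no transcripts of another tissue shared across the genes of a library, as in brown fat quercetin 3. Its rates therefore need not hold for these libraries. With 6 against 6 libraries, 16% of 2-fold, 84% of 4-fold and 98% of 16-fold changes were recovered, with 5 false calls. With 3 against 3 vehicle libraries these were 0%, 18% and 96%, with 10 false calls. A gene not called may thus still differ by 2-fold. Promoters are from RefSeq (GRCm38.p6).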

Additional observations from a re-analysis of the deposited data

Results flagged for a closer look

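A library was singled out where its distance to the nearest of the other 5 libraries of its tissue, divided by the range of all 6, was above Dixon's 95% critical value for 6 values. This was done in each tissue for the summed CPM of each list and for 6 library measures, such as the total count. Of 82 such comparisons 13 passed, where chance gives about 1 in 20, and the lists are not independent, since 9 of the 13 concern 1 library. Brown fat quercetin 3 was the highest brown fat library in all 9. For muscle lists its sums were 27500.0 CPM of sarcomere genes (249.3 to 6338 in the other 5), 28650.0 of fast-twitch genes (54.8 to 4995), 8879 of slow-twitch genes (299 to 1702), 2087 of junction and calcium release genes (73.9 to 655) and 3043 of creatine and adenine nucleotide genes (429 to 768). For other lists they were 558.3 of Schwann cell genes (226 to 303), 2763 of smooth muscle and pericyte genes (643 to 1179), 22450.0 of ribosomal protein genes (9470 to 14310) and 11040.0 of secreted hormones (3191 to 5610).

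Muscle quercetin 2 held 26730.0 CPM of seminal vesicle genes, where the other 5 muscle libraries had 0 to 0.105. Muscle vehicle 1 was highest for cholesterol synthesis, at 620.4 CPM (277 to 393 in the other 5), and for the insulin pathway, at 3089 (1819 to 2123). Brown fat quercetin 1 was highest for cholesterol synthesis, at 2600.0 CPM (517 to 1274). What these libraries do to the tissue comparison beyond the values without them was not tested.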

How the results depend on the processing

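The counts of genes higher in brown fat (2299) and in muscle (2415) and of those past 2-fold were compared with those of the alternatives. They stayed within 1.5 times under DESeq2, other scaling, no filter, the block and the first flow cell. So did the count within 2-fold, which was not taken with DESeq2. With one library left out these counts were 1925 to 2598, 1994 to 2791, 1510 to 2019 and 1571 to 2019 past 2-fold, and 3784 to 4953 within it. In the vehicle arm DESeq2 called 1144 and 1352 genes and the fit with no filter 1036 and 1355, and one library left out gave 18 to 903 and 10 to 991. In the quercetin arm DESeq2 called 2361 and 2168, and one library left out gave 0 to 2413 and 2 to 2602. The interaction had 0 genes (181 at an unadjusted p under 0.05, where chance alone would give 668.9), 0 to 0 with one library left out, and 1 with DESeq2. The cause was not tested. Scaling by library totals alone moved the median of all genes from -0.01 to 0.05. The fit on the first flow cell was the one without muscle quercetin 3, so it is no separate alternative.

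With the replicate number as a block, 2290 and 2484 genes were called in all 12 libraries, 749 and 882 in the vehicle arm, 672 and 813 in the quercetin arm and 0 for the interaction. The fall to 672 was the one count that the block moved by over 1.5 times, and in that arm one same-numbered pair of 3 did not deviate together.

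These log2 fold changes and list medians reversed. Atp5g2 (-0.10) was -0.23 to 0.097 with one library left out, 0.097 on the first flow cell and 0.0072 with quercetin alone. Hoxc6 (0.012) was -0.078 to 0.11 with one library left out, -0.030 on the first flow cell and -0.13 with vehicle alone. Myh7 (3.20) was -0.48 without both libraries holding the other tissue and the muscle library holding fat. Sln (-0.17) was -2.64 to 0.34 with one library left out, 0.039 by library totals and 1.44 with quercetin alone. Tnnt1 (2.61) was -0.72 to 4.28 with one library left out, -0.74 without both libraries holding the other tissue, -1.14 without both libraries holding the other tissue and the muscle library holding fat and -0.16 with vehicle alone. The slow-twitch fibre list median (0.58) was -2.19 to 1.73 with one library left out, -2.48 without both libraries holding the other tissue and the muscle library holding fat, -2.23 without both libraries holding the other tissue and -1.88 with vehicle alone. The nuclear receptors and coactivators list median (-0.19) was 0.088 with vehicle alone. The heat shock and unfolded protein response list median (0.22) was -0.30 to 0.33 with one library left out. The cytosolic ribosomal proteins list median (-0.22) was 0.14 with quercetin alone. The macrophage list median (-0.11) was -0.41 to 0.14 with one library left out, 0.14 on the first flow cell, 0.15 without both libraries holding the other tissue and the muscle library holding fat and 0.63 with vehicle alone. The lymphocyte list median (-0.87) was 0.053 with no filter and 0.049 without both libraries holding the other tissue. The cause was not tested. Depth, at 8436308 to 12311345 counts, limits genes with few counts, and 4426 of 13378 intervals stayed within 2-fold.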

Other observations

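Further members of the gene families were called in both directions. The fatty acid binding proteins Fabp4 and Fabp5 stood at 2376 ± 226 and 43.4 ± 24.0 CPM per kb in brown fat (mean ± SD, n = 6) and 309 ± 262 and 5.7 ± 2.42 in muscle (2.99 ± 0.63 and 2.84 ± 0.42; edgeR adjusted p = 0.00317 and 4.04e-04), with no overlap. Hk1, a hexokinase of many tissues, was higher in brown fat (2.10 ± 0.26, edgeR adjusted p = 1.54e-04), as were Pygb, the brain glycogen phosphorylase (1.51 ± 0.38, edgeR adjusted p = 0.00821), and Cox7a2, the partner of Cox7a1 in cytochrome oxidase (1.17 ± 0.28, edgeR adjusted p = 0.00702). Ampd1, the AMP deaminase of muscle, was higher in muscle (-5.19 ± 1.35, edgeR adjusted p = 0.0102), with brown fat quercetin 3 at 126 CPM and the other 5 brown fat libraries at 0 to 7.93. Acta2, smooth muscle actin, was also higher in muscle (-1.74 ± 0.35, edgeR adjusted p = 0.00266), without overlap. Ucp2, an uncoupling protein relative found in many cells, was not called (0.28 ± 0.37, edgeR adjusted p = 0.583).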
